A study of Mus musculus with 24 samples.

Results

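The cytosolic ribosomal protein genes of mouse liver were examined across 6 genotypes. They were chosen by name: rows of the count table annotated as protein-coding whose symbol begins with Rpl or Rps and a number, or is Rplp0, Rplp1, Rplp2 or Rpsa, leaving out S6 kinase genes, names ending in -ps and pseudogenes. Of 33019 rows, 85 met this rule. By name, 46 encode proteins of the large subunit and 31 of the small subunit. The remaining 8 are Rpl3l, Rpl7l1, Rpl22l1, Rpl36al, Rpl39l, Rps27l and Rps27rt, which are duplicates of other members, and Rps19bp1, which encodes a protein that binds Rps19 and is not itself a ribosomal protein. After a filter on low counts 83 members were tested, and Rpl3l and Rpl39l were not. Another 220 rows carry such a name but are annotated as pseudogenes, and Rpl10l and Rps4l are not analysed here.

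Liver RNA was sequenced in 24 libraries, 4 per genotype, from C57BL/6J mice aged 2 months. Wild-type livers (WT) were set against livers in which, by their labels, hepatic Atg5 had been deleted (Atg5 KO; autophagosomes cannot form without its product), or Tsc1, a brake on the growth kinase complex mTORC1 (TSC1 KO), or both (DKO). The other two groups are labelled as carrying both deletions together with a deletion of p62, the autophagy receptor encoded by Sqstm1 (p62 TKO), or of Nrf2, the antioxidant transcription factor encoded by Nfe2l2 (Nrf2 TKO). The labels name neither the Cre line nor the floxed alleles, and they do not state that each library came from its own animal, and p-values therefore reflect only how libraries varied, which may be technical. The question the design raises for these genes is whether their mRNAs moved with loss of Tsc1, of autophagy or of both, and whether further loss of p62 or Nrf2 moved them again.

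Ribosomes are built from a small subunit, which reads the mRNA, and a large subunit, which joins amino acids. Their proteins are made in matched amounts, and in the liver their mRNAs are abundant. The mRNAs of ribosomal proteins typically start with a C followed by an unbroken run of C and T (U in the RNA), the 5′ terminal oligopyrimidine or TOP tract. Through this tract mTORC1, acting with the RNA-binding protein Larp1, controls how strongly they are translated and how stable they are. The counts used here measure mRNA abundance and not translation.

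The start sequences show this feature at the annotated base in some members and not in others. RefSeq promoter sequences on GRCm38.p6, from 250 bases before to 50 bases after the annotated start, were matched by symbol for 65 of the 85 members. Each sequence below runs from 10 bases before the annotated start to 20 bases from it onward, 5′ to 3′ on the gene's strand. The first 6 are among the members with the longest run of C and T from a C at the start, and capitals mark that run:
Rpl15: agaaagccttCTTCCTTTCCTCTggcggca
Rpl35: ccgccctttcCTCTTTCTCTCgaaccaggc
Rps10: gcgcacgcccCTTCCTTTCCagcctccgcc
Rps18: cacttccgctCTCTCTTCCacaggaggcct
Rps6: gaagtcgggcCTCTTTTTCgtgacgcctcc
Rpl28: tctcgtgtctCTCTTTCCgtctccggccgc
They lie at chr14:18270967-18270996, chr2:39005112-39005141, chr17:27635225-27635254, chr17:33955646-33955675 and chr4:86857348-86857377 on the minus strand and, for Rpl28, at chr7:4792955-4792984 on the plus strand.

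The same window of 4 duplicates is shown because 3 of them, Rpl36al, Rpl7l1 and Rps27l, had the largest decreases among the duplicates in DKO livers. None of these starts opens with C and 5 or more pyrimidines at the annotated base, so no letters are capitalised:
Rpl36al: ccgtcgctcaggttcagttccgacttccgc
Rpl7l1: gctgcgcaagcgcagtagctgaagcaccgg
Rps27l: cctccccgccgcctctatcccggaagttgc
Rpl22l1: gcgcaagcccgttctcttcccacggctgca
The windows are chr12:69184048-69184077 and chr17:46782637-46782666 on the minus strand and chr9:66946076-66946105 and chr3:28805498-28805527 on the plus strand. An annotated start can lie some bases from the start used in liver, so a missing run says only that these letters are not at this base. In Rps27l and Rpl22l1 a run of C and T begins at the next base.

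Of the matched members, 14 of 65 (21.5%) began with C and at least 5 pyrimidines, against 3.01% of 27025 genes in the table. The string CTTTCC on the gene's strand, from 20 bases before to 50 after the start, was present in 20 of 65 (30.8%) against 3.79% of all genes. Over the whole window and on either strand, CCGGAAG, the core of ETS factor sites, was found in 26 members (40.0%, against 9.93%). On the same terms TCGCGAGA was found in 11 (16.9%, against 1.13%) and TATAAA, the core of the TATA box, in 7 (10.8%, against 15.7%). These 4 strings were chosen for print from 12 searched, after their counts were seen. CTTTCC also occurs inside a second string searched, CTCTTTCC. The 19 tested members with CTTTCC near the start had a median log2 fold change of 0.04 in DKO versus WT, and the 44 matched members without it had −0.06. In Nrf2 TKO versus DKO these medians were −0.24 and −0.29.

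Total counts per library ran from 10494080 to 13057467. Nfe2l2 was at 8.69 to 17.7 CPM (counts scaled to a common library total, here the TMM-scaled one) in Nrf2 TKO and at 56.6 to 162 in the other libraries. Sqstm1 was at 249, 439, 363 and 774 CPM in p62 TKO replicates 1 to 4, against 508 to 691 in WT, so the library labelled p62 TKO replicate 4 lay above every WT library. Atg5 was higher in Atg5 KO (38.6 to 46.7 CPM) and TSC1 KO (79.8 to 88.6) than in WT (22.5 to 31.4), and Tsc1 was at 29.1 to 33.8 in TSC1 KO against 33.1 to 36.7 in WT. Counts over a whole gene need not show the loss of some of its exons, so these 2 genes do not check their labels, and group names below are those of the labels. WT replicate 4 stood apart from the other WT libraries in these genes: their summed level there was 22647 CPM, against 17156 to 18093 in the other three. Results that this library or p62 TKO replicate 4 decides are given with and without it.

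Ribosomal protein mRNA took up a larger part of the DKO libraries than of any other group. The 85 genes together held 2.80% ± 0.194 (SD, n = 4) of all counts in DKO and 1.43% ± 0.144 in WT, a ratio of 1.96. The 4 DKO libraries were at 3.04, 2.88, 2.67 and 2.62%, all above the highest library of any other group, Atg5 KO replicate 1 at 1.88%. WT libraries held 1.32, 1.32, 1.47 and 1.62%. TSC1 KO had 1.38% ± 0.0263, close to WT and inside its range. Atg5 KO had 1.76% ± 0.145, p62 TKO 1.75% ± 0.147 and Nrf2 TKO 1.39% ± 0.183. The shares carry no test, since they sum over the chosen genes.

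Large and small subunit genes both held a larger share in DKO. Large subunit genes held 0.827% of counts in WT and 1.63% in DKO, and small subunit genes 0.579% and 1.14%. The ratio of the former to the latter was 1.43 ± 0.0386 in WT and 1.43 ± 0.042 in DKO, and its group means ran from 1.37 in Nrf2 TKO to 1.46 in Atg5 KO. The 20 most abundant genes outside the family held 19.7 to 20.3% of counts in WT and on average 10.4% in DKO, and with these left out of the total the share of ribosomal protein genes was 1.79% in WT and 3.13% in DKO.

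**Figure D1:**
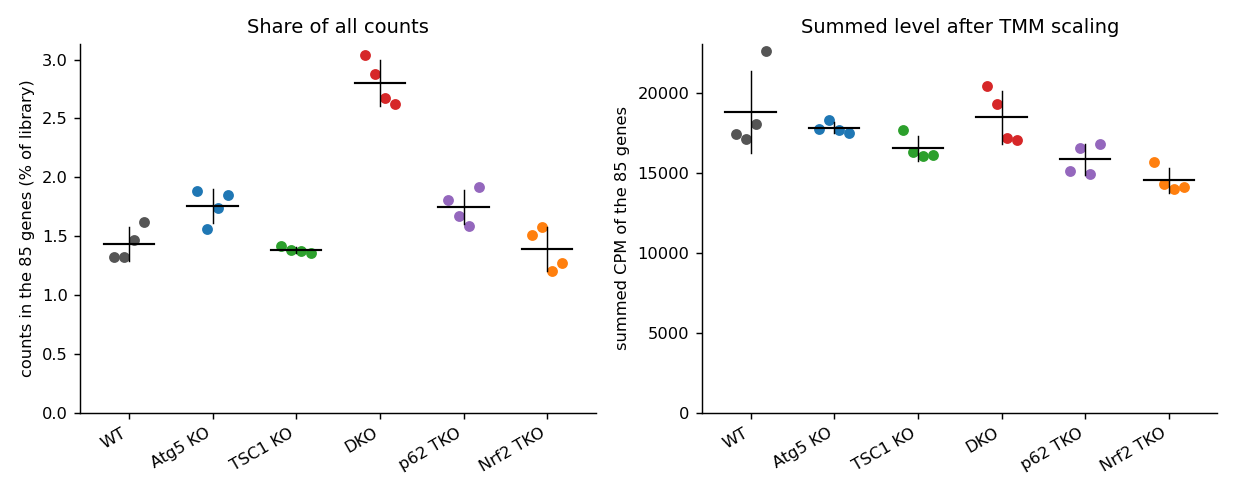
Percent of each library's counts in the 85 ribosomal protein genes (left) and their summed CPM on TMM-scaled totals (right), by genotype. Points are libraries, horizontal lines means and vertical lines ± 1 SD over 4 libraries. The DKO libraries stand at 2.62 to 3.04% on the left, above every other library, while on the right they lie at 17060 to 20433 CPM and overlap the WT libraries at 17156 to 22647.

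Scaling decides how that difference is read. TMM centres the bulk of genes, and total counts do not. On total counts alone the median of all 15851 tested genes lay at 1.07 (log2) in DKO versus WT, and the median of the ribosomal protein genes at 0.99. TMM placed these medians at 0.08 and −0.01. The members thus moved with the median gene on both scales, and their level changes below are relative to the TMM centre. A decrease below is a decrease against most other genes, and 21 of 101 changes called for named members turned direction on total counts. Without WT replicate 4 the members' median in DKO versus WT was 0.12. In bulk tissue, fewer cells of a type and less RNA per cell cannot be told apart.

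Levels ranged widely within the family. By CPM the highest over all libraries were Rpl4, a large subunit protein that lines part of the exit tunnel, at 621, Rplp0, the base of the stalk, at 610, Rplp1 at 460 and Rpsa, a small subunit protein also known as a laminin receptor precursor, at 414. Per kb of transcript the order changed: Rplp1 had 922 CPM per kb, Rpl41, which encodes a very short basic peptide, 914, Rps15 618 and Rps18 567. The lowest tested members were Rps27rt at 0.592 CPM, Rpl36al at 7.05 and Rpl22l1 at 14.5. Rpl3l, the form of Rpl3 in heart and skeletal muscle, summed to 29 counts over the 24 libraries, and Rpl39l, the form of Rpl39 in testis, to 4 counts in 1 library of TSC1 KO and 0 in the others.

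Few members passed the test after loss of Atg5 alone. In Atg5 KO versus WT 1 of 83 tested members was called higher and 2 lower, by edgeR's quasi-likelihood test at a Benjamini-Hochberg adjusted p under 0.05. Of all genes tested, 18.6% were called higher and 11.3% lower. The members' median was −0.08 (interquartile range −0.18 to 0.02). Rpl7l1 fell by 0.42 ± 0.14 (log2, SE, adjusted p = 0.0315), from 114 ± 11.9 to 85.4 ± 8.06 CPM (n = 4 each), with no overlap of the groups. Rps14, a protein of the small subunit platform, fell by 0.34 ± 0.12 (adjusted p = 0.0371), and Rps12 rose by 0.36 ± 0.14 (adjusted p = 0.0497). Without WT replicate 4 the counts were 4 higher and 0 lower and the median turned to 0.07. Leaving out any of the other seven libraries gave 0 higher and 0 to 4 lower.

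Loss of Tsc1 alone gave 6 members called lower (7.23%) and 0 higher, with 7.60% of all genes called lower and 8.79% higher. The lower share is near that background. At an unadjusted p under 0.05 there were 16 of 83 members, a smaller share than the 4869 of 15851 genes. DESeq2 called 11 members lower, a larger share than the 7.98% of all genes it called lower. The median was −0.16, and 69 of 83 estimates were below 0. Over all genes the median was 0.01, and 7699 of 15851 estimates were below 0. Rpl3, which sits at the peptidyl transferase centre, fell most: TSC1 KO libraries held 258, 237, 167 and 233 CPM against 407, 316, 300 and 459 in WT (log2 fold change −0.73 ± 0.17, adjusted p = 0.00486). Each TSC1 KO library was below each WT library for all 6, among them Rps7, Rpl4, Rpl12 and Rpsa at changes of −0.33 to −0.43. How often all genes called were separated in this way was not counted. Without WT replicate 4 only Rpl3 of the 83 was called lower and the median was 0. Leaving out any TSC1 KO library or WT replicate 1 gave 2 or 3 lower.

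In DKO livers members moved both ways around a median near 0. DKO versus WT gave 7 higher and 13 lower, where 37.1% of all genes were called higher and 32.3% lower. The interquartile range of the members ran between −0.18 and 0.14, and that of all genes between −0.68 and 1.17. A change of at least 1 on the log2 scale, in either direction, was seen in 2 of 83 members (2.41%) and in 45.6% of all genes. Without WT replicate 4 the count was 15 higher and 10 lower. Without WT replicate 2 it was 2 higher, and without WT replicate 3 it was 4.

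**Figure D2:**
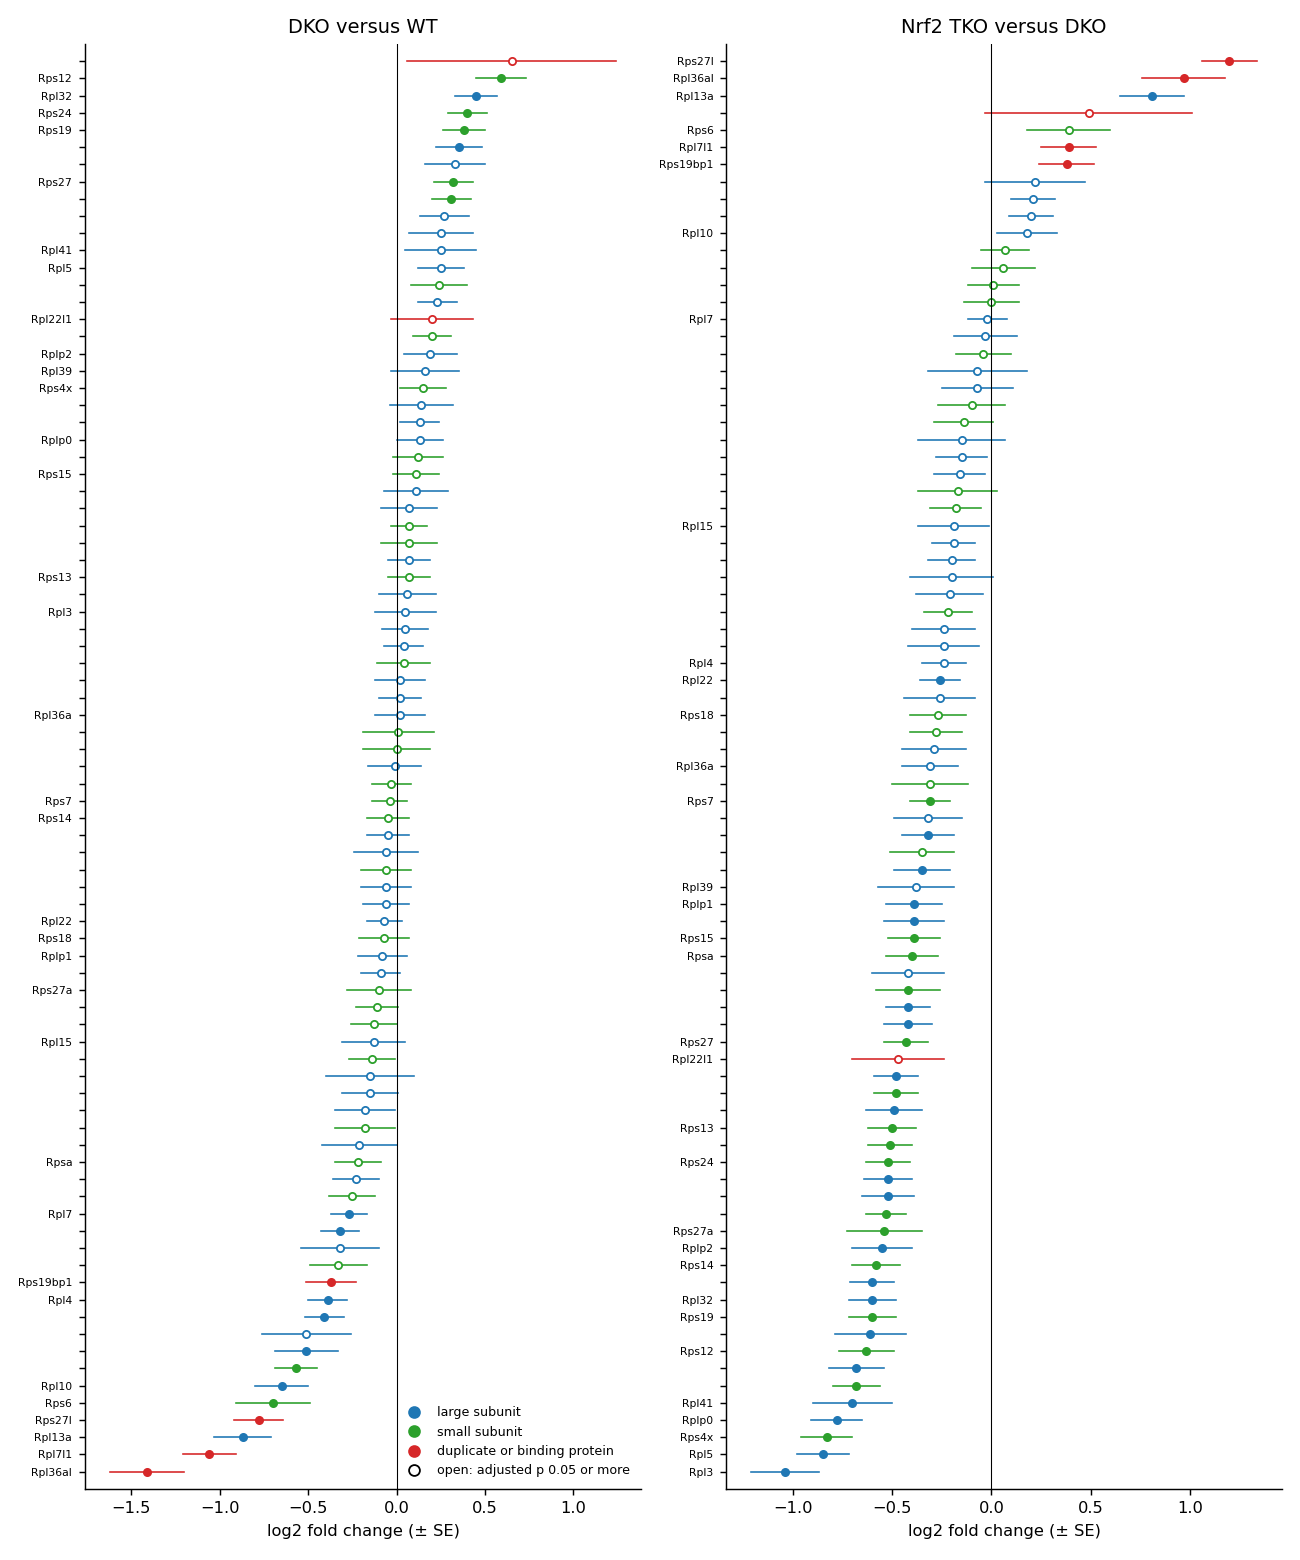
Log2 fold change (± SE) of the 83 tested members, ordered by size and with the members of the naming rule labelled, in DKO versus WT (left) and Nrf2 TKO versus DKO (right). Colour gives the subunit, with duplicates and the binding protein apart, and filled points have an adjusted p under 0.05. On the left 7 filled points are above 0 and 13 below, and on the right 5 are above and 36 below, with the duplicates Rpl36al, Rpl7l1 and Rps27l low on the left and high on the right.

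The 2 largest decreases in DKO, those of Rpl36al and Rpl7l1, belonged to duplicated members. Of the 6 tested genes in the class of duplicates and binding protein, 4 fell and 0 rose in DKO versus WT. Of all genes 32.3% were called lower and 37.1% higher. Rpl36al (chr12:69182731-69184083), a duplicate of Rpl36a, had 7.71, 8.66, 10.3 and 10.4 CPM in WT and 3.43, 4.72, 3.44 and 2.31 in DKO. The groups did not overlap, and the log2 fold change was −1.41 ± 0.21 (adjusted p = 2.45e-06). Its parent Rpl36a stood at 109 ± 17.8 CPM in WT and 111 ± 21 in DKO (0.02 ± 0.14, adjusted p = 0.90). Rpl36al lies on a low count, 252 over the 4 DKO libraries, and its annotated span overlaps a second protein-coding gene, Gm49383, on the same strand.

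Rpl7l1 (chr17:46773907-46782672), a relative of Rpl7, had 122, 127, 102 and 106 CPM in WT and 49.6, 64.5, 52.9 and 52.0 in DKO. Every DKO library lay below every WT library (−1.06 ± 0.15, adjusted p = 8.86e-07). Rpl7 itself fell from 454 ± 32.9 to 376 ± 27.4 CPM (−0.27 ± 0.10, adjusted p = 0.0202).

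Rps27l (chr9:66946086-66949516), a duplicate of Rps27 known as a p53 target, had 172, 172, 203 and 204 CPM in WT and 125, 127, 92.6 and 92.5 in DKO. It fell by 0.78 ± 0.14 (adjusted p = 2.64e-05), with the groups apart. Rps27 moved the other way, from 138 ± 26.5 to 173 ± 11.6 CPM (0.32 ± 0.11, adjusted p = 0.0128), although WT replicate 4 at 172 reached the DKO values. Rpl22l1, the duplicate of the RNA-binding protein gene Rpl22, was at 15 ± 2.74 CPM in WT and 17.1 ± 4.80 in DKO (adjusted p = 0.45).

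Rps27l was the member least like the family mean. Its mean was lowest in DKO and highest in Nrf2 TKO (252 ± 38.7 CPM), with TSC1 KO at 210 ± 15.9 and p62 TKO at 199 ± 32.5. Its levels rose by 0.86 ± 0.14 in p62 TKO versus DKO (adjusted p = 2.76e-05) and by 1.2 ± 0.14 in Nrf2 TKO versus DKO (adjusted p = 1.68e-07). In Nrf2 TKO it was above WT as well, by 0.43 ± 0.14 (adjusted p = 0.0166), the 1 member called higher there. Over the 24 libraries the correlation of its log2 CPM with the mean of the 83 members was −0.21, the lowest of all and the only one below 0. The highest were those of Rps13 and Rplp1 at 0.92 and Rpl22 at 0.91, and 65 of 83 were above 0.5. These correlations are descriptions over libraries that share groups, and each member is part of the mean.

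**Figure D3:**
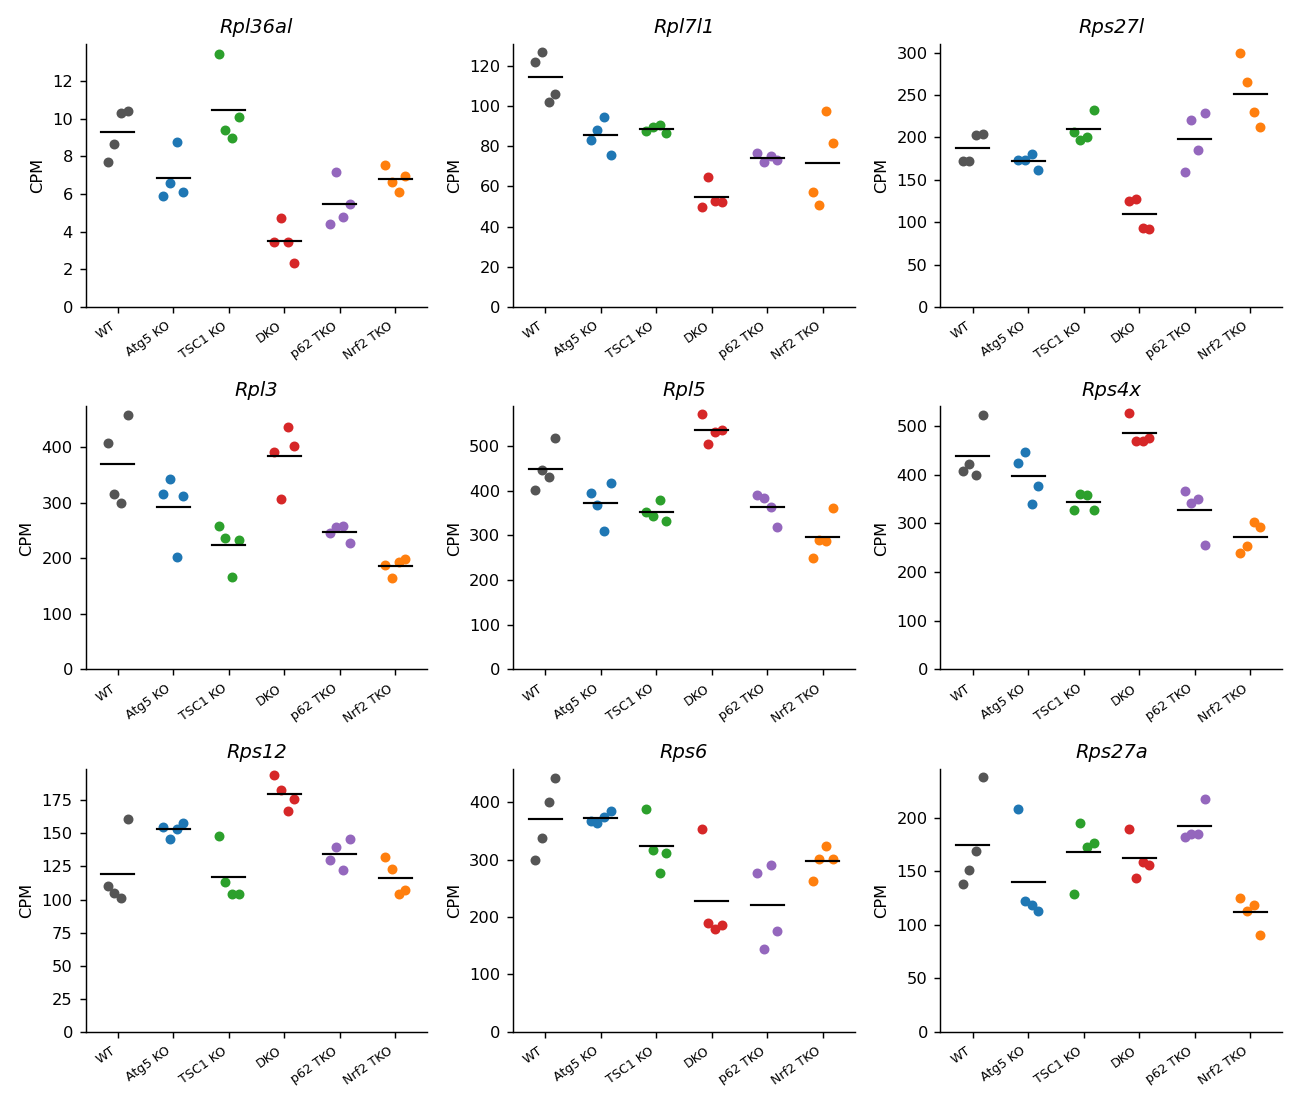
CPM on TMM-scaled totals of 9 members in each of the 24 libraries, by genotype, with a line at the group mean. Axes start at 0 and differ between panels. Rpl36al, Rpl7l1 and Rps27l are lowest in DKO, at means of 3.47, 54.8 and 109 CPM, while Rpl3, Rpl5, Rps4x and Rps12 have their highest means there.

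Among large subunit genes 7 of 46 (15.2%) were called lower in DKO versus WT and 2 (4.35%) higher. Both shares are below those of all genes, 32.3% lower and 37.1% higher. Rpl13a, known also for silencing translation of inflammatory mRNAs, had 20.9, 27.0, 33.1 and 30.6 CPM in WT and 15.8, 18.9, 14.7 and 11.7 in DKO (−0.87 ± 0.16, adjusted p = 5.42e-05). All DKO values were below all WT values. A protein-coding gene on the same strand, Gm45713, overlaps it, and the level of Rpl13a, 23 CPM per kb over all libraries, was far below that of most members. Rpl10, which joins the subunit late in assembly, fell from 220 ± 30.9 to 140 ± 10.7 CPM (−0.65 ± 0.15, adjusted p = 0.000438). Rpl4 fell from 771 ± 56.3 to 589 ± 28.4 CPM, and Rpl7a, Rpl27a and Rpl35a were called lower too. Rpl32 rose from 200 ± 34.2 to 274 ± 25.4 CPM (0.45 ± 0.12, adjusted p = 0.00188), although WT replicate 4 at 249 exceeded the lowest DKO library at 238. Rpl35, whose TOP-like start is shown above, was the other called higher, at 0.35.

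Of 31 small subunit genes 5 (16.1%) were called higher in DKO versus WT and 2 (6.45%) lower. Here too both shares are below those of all genes, 37.1% higher and 32.3% lower. Rps12 had 110, 105, 101 and 161 CPM in WT and 194, 183, 167 and 176 in DKO. The groups did not overlap, and the change was 0.59 ± 0.14 (adjusted p = 0.000487). Rps19, the gene most often mutated in Diamond-Blackfan anaemia, rose from 128 ± 16.5 to 166 ± 17 CPM (0.38 ± 0.12, adjusted p = 0.00652), again without overlap. Rps24, Rps27 and Rps15a were the others higher. Rps2 fell by 0.57. Rps6, the substrate of S6 kinases downstream of mTORC1, had 300, 337, 400 and 443 CPM in WT and 353, 190, 180 and 186 in DKO (−0.70 ± 0.21, adjusted p = 0.00564). Here the groups overlapped, since DKO replicate 1 lay inside the WT range and the other three DKO libraries below it. Without DKO replicate 1 the change was −0.99. In p62 TKO Rps6 was split as well, at 277, 144, 290 and 176 CPM.

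The stalk proteins Rplp0, Rplp1 and Rplp2, which recruit elongation factors, did not pass the test in DKO versus WT. Their levels were 686 ± 86.2 and 752 ± 35.3 CPM for Rplp0, 518 ± 73.4 and 489 ± 85.8 for Rplp1, and 148 ± 26.6 and 169 ± 32.8 for Rplp2, in WT and DKO. Rpsa was at 500 ± 97.6 and 428 ± 38.9 CPM (adjusted p = 0.14). Rps27a, which is made as a fusion with ubiquitin, was at 174 ± 44.4 and 162 ± 18.9 CPM (adjusted p = 0.63).

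The interaction term asked whether the change with both deletions differed from the sum of the 2 single changes. It was above 0 for 12 members and below 0 for 2, where 15.5% of all genes were called above and 19.3% below. The members' median was 0.24 and that of all genes 0.03. Rpl3 had the largest positive term, 1.12 ± 0.24 (adjusted p = 0.000807): its means were 371 CPM (WT), 294 (Atg5 KO), 224 (TSC1 KO) and 384 (DKO). Rpl5, which with 5S rRNA can bind Mdm2, had 0.88 ± 0.18 (adjusted p = 0.000514), with means of 449, 372, 352 and 536 CPM in the same order. Rps4x, the X-linked small subunit gene, and Rps19 followed at 0.64 and 0.57. The 2 negative terms were Rpl36al at −1.16 ± 0.29 and Rps27l at −0.82 ± 0.19 (adjusted p = 0.00328 and 0.00204). This result leaned on WT replicate 4: without it Rpl3 and Rpl5 alone were called above 0 and 4 members below, and the median was 0.03. Every other WT library, every TSC1 KO and DKO library except DKO replicate 4, and Atg5 KO replicates 2 and 4, also lowered the number above 0 to between 4 and 7 when left out. A fit of only the 4 groups involved called 6 above 0, where it called 14.7% of all genes above 0.

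Further loss of Nrf2 was accompanied by lower levels of many members. In Nrf2 TKO versus DKO 36 members were called lower and 5 higher, where 29.2% of all genes were called lower and 26.7% higher. That is 43.4% and 6.02% of the members. In 32 of the 36 every Nrf2 TKO library lay below every DKO library, and the same count over all genes called was not made. The median was −0.31 (interquartile range −0.49 to −0.12) and that of all genes −0.05. Without DKO replicate 3 or replicate 4 the number higher was 3. Both subunits took part, with 20 of 46 large and 16 of 31 small subunit genes lower and 1 and 0 higher.

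Rpl3 (chr15:80077791-80091868) fell most, from 391, 307, 437 and 402 CPM in DKO to 189, 165, 193 and 199 in Nrf2 TKO (−1.04 ± 0.17, adjusted p = 1.66e-05). Rpl5 (chr5:107900502-107909005) fell from 572, 504, 530 and 536 CPM to 249, 289, 288 and 361 (−0.85 ± 0.13, adjusted p = 5.39e-06). Rps4x (chrX:102184941-102189394) fell from 526, 470, 469 and 476 CPM to 240, 253, 303 and 293 (−0.83 ± 0.13, adjusted p = 1.07e-05). In these 3 genes the highest Nrf2 TKO library was below the lowest DKO library. The stalk followed, with Rplp0 at −0.78 ± 0.13, Rplp2 at −0.55 ± 0.15 and Rplp1 at −0.39 ± 0.14, each called. Rpsa fell by 0.40 and Rps27a by 0.54. The 5 that rose were Rps27l, Rpl36al (0.97 ± 0.21), Rpl13a (0.81 ± 0.16), Rpl7l1 (0.39 ± 0.14) and Rps19bp1 (0.38 ± 0.14). This comparison and DKO versus WT share the DKO libraries.

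Fewer members passed in p62 TKO versus DKO, 19 lower and 5 higher, where 21.5% of all genes were called lower and 22.3% higher. The lower share of 22.9% is near that background. The median was −0.20, and 71 of 83 estimates were below 0. Over all genes the median was −0.02, and 8068 of 15851 estimates were below 0. Rpl5 had 572, 504, 530 and 536 CPM in DKO against 391, 383, 363 and 318 in p62 TKO (−0.56 ± 0.13, adjusted p = 0.000985), with no overlap. Rps4x fell by 0.56, Rps27 by 0.46 and Rpl3 by 0.64. The 5 that rose were Rps27l, Rpl13a (0.67 ± 0.16), Rpl36al (0.65 ± 0.21), Rpl7l1 (0.44 ± 0.14) and Rps19bp1 (0.37 ± 0.14), against the same DKO libraries. Without p62 TKO replicate 4 the counts were 22 lower and 4 higher. Without replicate 2 or replicate 3 of the same group 12 were lower. Without p62 TKO replicate 2 or DKO replicate 4, 3 were higher.

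The 2 triple knockouts were compared directly, since both were set against the same DKO libraries. In p62 TKO versus Nrf2 TKO 3 members were called higher and 0 lower, where 10.4% of all genes were called higher and 7.11% lower. At an unadjusted p under 0.05 there were 13 of 83, a smaller share than the 4894 of 15851 genes. DESeq2 called 7 members higher and 0 lower, where it called 12.3% of all genes higher and 8.16% lower. Rps27a had 182, 185, 185 and 217 CPM in p62 TKO and 125, 113, 118 and 90.0 in Nrf2 TKO. The groups were apart, at 0.79 ± 0.19 (adjusted p = 0.00514). Rplp0 (0.41 ± 0.13, adjusted p = 0.0335) and Rps19 (0.33 ± 0.12, adjusted p = 0.0498) were the others. Without p62 TKO replicate 4, and likewise without p62 TKO replicate 1 or 2 or Nrf2 TKO replicate 2, 1 member was called higher.

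Against WT, many members were lower in both triple knockouts when all libraries were used. In p62 TKO versus WT 26 members were called lower and 0 higher, where 22.9% of all genes were called lower and 28.0% higher, and the median was −0.21. An unadjusted p under 0.05 was reached by 30 of 83 members, a smaller share than the 8974 of 15851 genes. DESeq2 called 28 members lower and 0 higher, where it called 23.5% of all genes lower and 28.5% higher. In Nrf2 TKO versus WT 33 were called lower and 1 higher, where 17.1% of all genes were called lower and 22.4% higher, and the median was −0.30. Rpl4 had the smallest adjusted p among the decreases in both: WT libraries held 756, 763, 716 and 850 CPM, p62 TKO 536, 541, 518 and 481, and Nrf2 TKO 468, 480, 525 and 520. Its changes were −0.57 ± 0.11 (adjusted p = 0.000126) and −0.63 ± 0.11 (adjusted p = 9.09e-05). Rpl3 was at −0.58 and −0.99, Rps4x at −0.42 and −0.69, and Rpl10 at −0.57 and −0.47. Rps6 was called only in p62 TKO, at −0.74 ± 0.21 (adjusted p = 0.00621), against −0.31 ± 0.21 (adjusted p = 0.25) in Nrf2 TKO, and the direct comparison of the 2 gave −0.42 ± 0.21 (adjusted p = 0.18). With WT replicate 4 left out, 9 members were called lower in p62 TKO, a smaller share than the 19.6% of all genes. In Nrf2 TKO 17 were called lower, a larger share than the 13.6% of all genes. With p62 TKO replicate 1 or 3 left out, 15 were lower in p62 TKO, where 19.4% and 20.3% of all genes were. On total counts alone 36 members were called higher and 0 lower in p62 TKO, where 54.1% of all genes were higher and 6.23% lower. In Nrf2 TKO 3 were called higher and 5 lower on that scale, where 38.9% and 6.33% of all genes were.

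**Figure D4:**
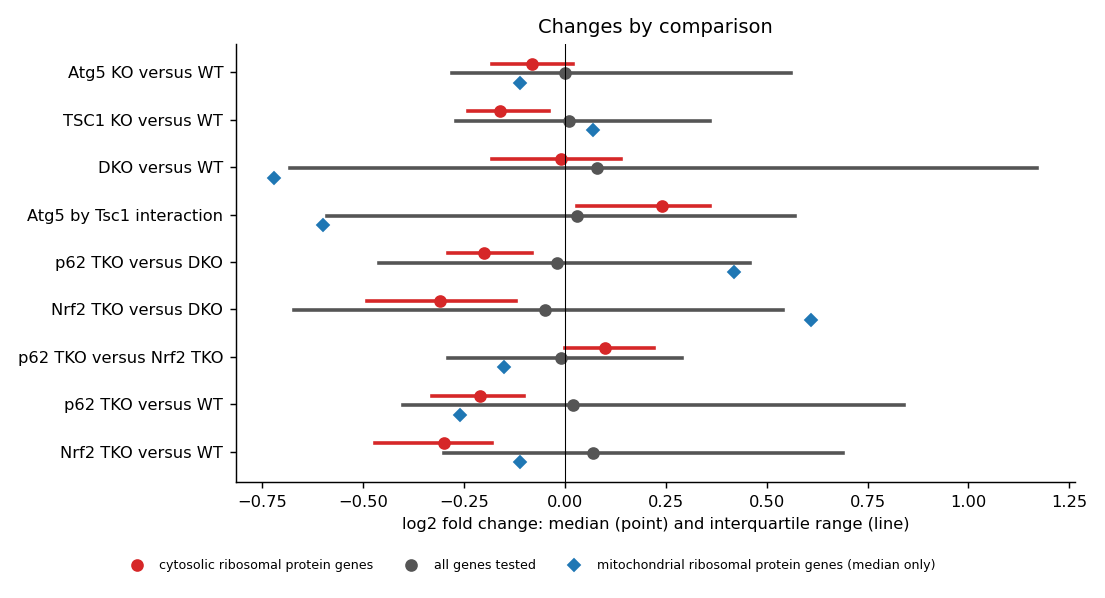
Median log2 fold change (points) in the 9 comparisons for the 83 tested cytosolic ribosomal protein genes and for all 15851 genes, with a line over the interquartile range of the genes, and the median of 77 mitochondrial ribosomal protein genes (diamonds). The cytosolic median lies between −0.31 and 0.24 in every comparison, while the mitochondrial one is at −0.72 in DKO versus WT and 0.61 in Nrf2 TKO versus DKO.

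Genes of the mitochondrial ribosome, which makes the proteins encoded by mitochondrial DNA, had a median further from 0 than the cytosolic set in DKO versus WT and in both triple knockouts versus DKO. In TSC1 KO versus WT (0.07 against −0.16) and Nrf2 TKO versus WT (−0.11 against −0.30) it was nearer to 0. Of 77 tested, 60 fell and 2 rose in DKO versus WT, with a median of −0.72. Of all genes 32.3% were called lower and 37.1% higher. These falls are relative to the TMM centre. Of all counts, the 78 mitochondrial ribosomal protein genes held 0.229 to 0.253% in WT libraries and 0.254 to 0.309% in DKO libraries. Mrpl15 fell from 84.7 ± 11.9 to 25.1 ± 3.71 CPM (−1.75 ± 0.14, adjusted p = 2e-10) and Mrps2 from 51.1 ± 8.11 to 19.5 ± 1.2 (−1.39 ± 0.12, adjusted p = 1.27e-09). Mrps6 rose, from 14.6 ± 3.14 to 33.0 ± 4.64 CPM, and Mrpl40 by 0.25. In Nrf2 TKO versus DKO 60 rose and 2 fell, where 26.7% of all genes were called higher and 29.2% lower. In p62 TKO versus DKO 53 rose and 1 fell, where 22.3% of all genes were called higher and 21.5% lower. The difference between the 2 families was not tested.

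Translation factors and other genes known for TOP mRNAs gave 3 higher and 10 lower of 22 in DKO versus WT, where 37.1% of all genes were called higher and 32.3% lower, with a median of −0.26. Hnrnpa1 rose by 0.92 and Eif3f, a subunit of the initiation factor eIF3, by 0.36, while Eif3l of the same factor fell by 0.55 and Eif2s3x, a subunit of eIF2, by 0.70. In Nrf2 TKO versus DKO 8 of the 22 fell and 0 rose, where 29.2% of all genes were called lower. In p62 TKO versus DKO 3 fell and 0 rose, a smaller share than the 21.5% of all genes called lower. Of genes for rRNA synthesis and ribosome assembly, 9 of 48 rose and 17 fell in DKO versus WT (median −0.14). Nop10, a part of the H/ACA particles that modify rRNA, fell by 1.09 and Nop16 by 1.19, while Gar1, another part of those particles, rose by 0.94 and Taf1a, a subunit of the RNA polymerase I factor SL1, by 0.63. In TSC1 KO versus WT 12 of these 48 fell and 0 rose, where 7.60% of all genes were called lower, with a median of −0.27.

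Among 16 genes listed for mTORC1-linked control of translation 3 rose and 7 fell in DKO versus WT. Of all genes 37.1% were called higher and 32.3% lower. Eif4g1, the scaffold of the cap-binding complex, fell from 596 ± 45.5 to 195 ± 23.8 CPM (−1.61 ± 0.15, adjusted p = 3.68e-09), and Eif4e, which binds the cap, from 81.6 ± 5.94 to 39.1 ± 4.56 (−1.06 ± 0.11, adjusted p = 1.01e-08). Rps6ka3, an S6-type kinase by name, rose by 1.55 and Maf1, a repressor of RNA polymerase III, by 1.22. Whether mTORC1 acts through Rps6ka3 was not tested. In TSC1 KO versus WT 1 of the 16 rose and 1 fell, where 8.79% of all genes were called higher and 7.60% lower.

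Cell type markers moved with the same groups. Of all genes, 37.1% were called higher and 32.3% lower in DKO versus WT. These shares were 18.6% and 11.3% in Atg5 KO versus WT, and 8.79% and 7.60% in TSC1 KO versus WT. Against WT they were 28.0% and 22.9% in p62 TKO, and 22.4% and 17.1% in Nrf2 TKO. The summed level of 10 hepatocyte markers was 95500 to 115000 CPM in WT and 16500 to 22600 in DKO. In Nrf2 TKO it was 77500 to 103000 and in p62 TKO 42700 to 55700, and all 10 were called lower in DKO versus WT. That of 10 cholangiocyte markers was 80.1 to 119 CPM in WT and 6930 to 10300 in DKO. In Nrf2 TKO it was 1650 to 2930 and in p62 TKO 2460 to 3700, with 10 called higher in DKO versus WT. The single knockouts lay between, at 488 to 1150 CPM in Atg5 KO and 590 to 985 in TSC1 KO, with 9 of 10 cholangiocyte markers called higher in each (medians 3.14 and 2.98). Hepatocyte markers summed to 54300 to 122000 CPM in Atg5 KO, where 5 of 10 were called lower, and to 88700 to 103000 in TSC1 KO, where 1 was higher and 1 lower. In both lists 0 markers were at 0 counts in a group. Markers of dividing cells summed to 45.5 to 54.0 CPM in WT and 86.2 to 181 in DKO, and 10 of 10 rose. In Atg5 KO they summed to 81.0 to 166 CPM, and 10 of 10 rose there too. In p62 TKO they summed to 154 to 198 CPM and in Nrf2 TKO to 63.7 to 112. Macrophage markers summed to 205 to 341 CPM in WT and 51.4 to 136 in TSC1 KO, where 9 of 10 fell. In DKO they summed to 266 to 431, with 4 higher and 5 lower, and in Atg5 KO 5 rose. In p62 TKO they summed to 457 to 717 CPM and in Nrf2 TKO to 169 to 233. Stellate cell and fibroblast markers summed to 189 to 309 CPM in WT and 737 to 919 in DKO, where 7 of 10 rose and 2 fell, and to 515 to 890 in Atg5 KO, where 8 rose. In WT and DKO endothelial markers summed to 134 to 249 and 220 to 251 CPM, neutrophil markers to 7.43 to 16.4 and 10.2 to 22.3, and red cell markers to 172 to 504 and 78.4 to 465. Lymphocyte markers were low, at 27.7 CPM or less in every library, and higher in DKO than in WT: 12.9 to 23.7 against 2.56 to 4.88 CPM, with no overlap. Of 9 tested, 6 rose in DKO versus WT (median 2.06), 7 in Atg5 KO, 6 in p62 TKO and 5 in Nrf2 TKO. The part of these shifts in the ribosomal protein results was not tested.

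Near-identical copies limit what a count for one member means. Each member's main transcript in GENCODE M21 was cut into all windows of 75 bases, the read length, and each window was looked up in the transcripts of other genes. In 80 of 85 members at least 1 window had an exact copy elsewhere, and in 37 at least 50% of windows had one (median over members 47.9%). Rps27 had 98.5%, Rpl10 91.9%, Rps12 89.5%, Rps6 84.1% and Rpl3 83.2%, while Rps27l had 12%, Rpl7l1 3.87% and Rps19bp1 0. Rps3, also at 0 and chosen here for that reason after its values were seen, fell by 0.51 in Nrf2 TKO versus DKO. How the authors counted reads that fit several places is not known here. Rows named as ribosomal protein pseudogenes held 0.0235% of counts in WT and 0.0551% in DKO.

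**Figure D5:**
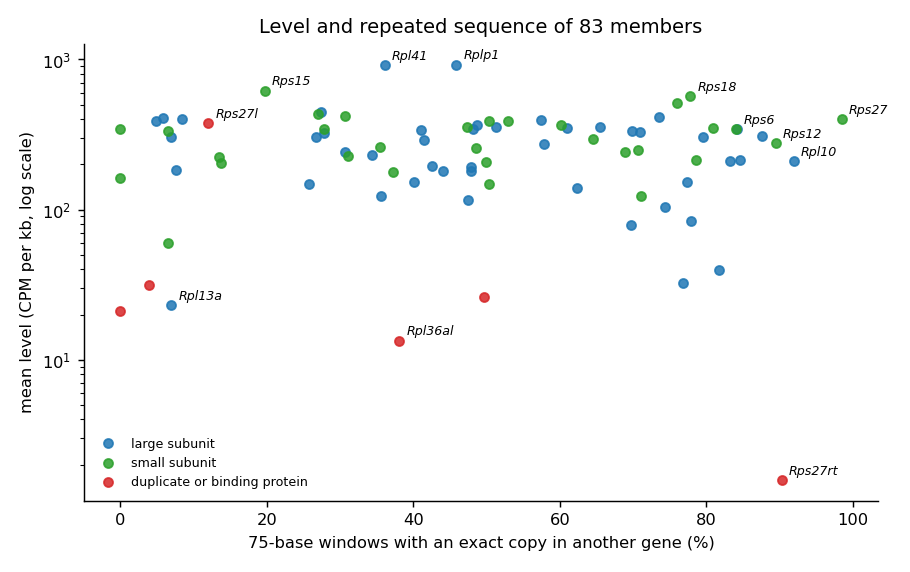
Mean level per kb of transcript (log scale) against the percent of 75-base windows with an exact copy in another gene, for the 83 tested members coloured by subunit. Members with few and many copied windows spread over the same range of levels, and Spearman's rho across the 83 genes, a description, is −0.02.

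Members with many copied windows were set beside those with fewer. In DKO versus WT the 37 with at least 50% copied had a median of −0.06 and the 46 others 0.02. In Nrf2 TKO versus DKO the medians were −0.27 and −0.39, with 12 of the 37 and 24 of the 46 called lower, where 29.2% of all genes were. The share was thus larger among members with fewer copied windows, and this difference was not tested. Of the 85 members, 20 overlap another protein-coding gene and 30 hold or overlap a small nucleolar RNA gene, and whether the counting used strand is not known here.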

How the data were processed

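The authors deposited raw, whole-number counts for Ensembl genes, with 1 column per library, made from stranded polyA libraries with Trimmomatic 0.36, HISAT2 2.1.0, HTSeq and the build GRCm38, per the submitters' processing notes. For HTSeq, no version, strand setting or handling of reads with several matches is given in the sources used here. GENCODE M21 named 32953 of 33019 identifiers.

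Counts were analysed in edgeR 4.0.16 and DESeq2 1.42.0 (R 4.3.3), and tables and figures made in Python 3.11.15. The filter on low counts, filterByExpr with the genotype as group, left 15851 genes, libraries were scaled by TMM, and 1 mean per genotype was fitted to the 24 libraries by robust quasi-likelihood. Calls needed an adjusted p (Benjamini-Hochberg) under 0.05 over all genes tested in the comparison. The SE is the size of the log2 fold change over the square root of F. Levels are CPM on TMM-scaled totals, correlations use log2 CPM (prior count 2), and levels per kb use 1 coding transcript per gene (APPRIS principal first, then support level, then the shortest). The test was run on simulated counts first.

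Members and lists were chosen with earlier results of these data known. Named in each comparison were up to 4 called members per direction with the smallest adjusted p; the 4 highest by CPM and by CPM per kb; duplicated pairs; the stalk; Rps6, Rpsa and Rps27a; those most and least like the family mean; and, in DKO versus WT, 2 genes per direction of the other lists. Some members that this rule names are counted in totals but not reported singly here. Alternatives were DESeq2 and its size factors, scaling to total counts, dropping the low-count filter, fits of only the compared groups, a replicate block, a second total for the shares, and leaving out each library.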

Additional observations from a re-analysis of the deposited data

Results flagged for a closer look

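For each group of 4 libraries the highest or lowest value was set against the others by Dixon's criterion, over the share of counts and the levels of named tested members, 204 groups in all. It marked 15 (7.35%), where chance alone marks about 1 in 20. WT replicate 4 was the high library in 5 of them: Rpl41 at 535 CPM, Rplp0 at 815, Rps12 at 161, Rps13 at 170 and Rpsa at 646. TSC1 KO replicate 2 was high for Rpl15 at 117 CPM and Rplp1 at 490, and TSC1 KO replicate 1 for Rps15 at 398. Atg5 KO replicate 2 was high for Rpl7 at 495 CPM, replicate 1 for Rps27a at 208 and replicate 4 for Rpsa at 490. DKO replicate 1 was high for Rps4x at 526 CPM and Rps6 at 353. In p62 TKO, replicate 2 was high for Rps14 at 266 CPM and replicate 4 for Rps27a at 217.

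For 14 members the effect of losing Atg5 differed between livers with and without Tsc1, by the interaction term in edgeR's quasi-likelihood test. That is 16.9% of the 83 tested, against 34.8% of all genes. The term was negative for Rpl36al (−1.16) and Rps27l (−0.82). It was positive for 12, among them Rpl3 (1.12), Rpl5 (0.88), Rps4x (0.64), Rps19 (0.57), Rplp0 (0.54), Rps27 (0.50), Rps14 (0.46), Rps9 (0.46), Rps15a (0.45), Rpl10a (0.43) and Rps3 (0.42). Without WT replicate 4 the term was called positive for Rpl3 and Rpl5 alone, and negative for 4 members.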

How the results depend on the processing

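Numbers of members called moved most with scaling to total counts alone. Numbers on that scale follow as higher and lower, with the shares of all genes called higher and lower in brackets. Against WT they were 77 and 0 in DKO (70.4% and 11.1%) and 23 and 0 in Atg5 KO (36.1% and 2.2%). In p62 TKO versus WT they were 36 and 0 (54.1% and 6.23%), and in Nrf2 TKO versus WT 3 and 5 (38.9% and 6.33%). TSC1 KO versus WT gave 0 and 1 (11.7% and 3.96%), and the interaction 60 and 0 (35.5% and 10.6%). Against DKO they were 1 and 70 in p62 TKO (10.2% and 47.6%) and 1 and 76 in Nrf2 TKO (11.5% and 59.8%). The direct comparison, p62 TKO versus Nrf2 TKO, gave 25 and 0 (18.8% and 3.46%). Scaling to total counts turned the direction of 21 of 101 changes called for named members. These were Rps14 in Atg5 KO versus WT (0.03); Rpl10 (0.35), Rpl13a (0.12), Rpl4 (0.61), Rpl7 (0.72), Rps19bp1 (0.62), Rps27l (0.21) and Rps6 (0.29) in DKO versus WT; Rpl7l1 (−0.31) and Rps19bp1 (−0.29) in Nrf2 TKO versus DKO, and −0.02 and −0.09 for the same genes in p62 TKO versus DKO; Rpl22 (0.01) and Rpl7 (0.04) in Nrf2 TKO versus WT. In p62 TKO versus WT they were Rpl22 (0.26), Rpl5 (0.23), Rpl7 (0.19), Rps14 (0.21), Rps4x (0.12), Rps7 (0.24) and Rpsa (0.18). Within a comparison the change of scale moves all genes together, but the size of the shift differs between comparisons. With WT as the reference, the median over all genes shifted by 0.99 (log2) for DKO and 0.37 for Atg5 KO. For the triple knockouts against WT the shift was 0.53 (p62) and 0.32 (Nrf2). With DKO as the reference it was −0.46 (p62) and −0.66 (Nrf2).

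The share of all genes called the same way in the same setting follows each number in brackets. With DESeq2, 4 members were lower in Atg5 KO versus WT (12.7%) and 11 lower in TSC1 KO versus WT (7.98%). It called 7 higher in p62 TKO versus Nrf2 TKO (12.3%). With DESeq2 size factors 0 were higher in Atg5 KO versus WT (18.5%). With no filter on low counts the shares are of 33019 genes. There, Atg5 KO versus WT gave 0 higher (8.19%) and 0 lower (3.3%), and TSC1 KO versus WT 1 lower (2.1%). DKO versus WT gave 11 higher (20.7%) and p62 TKO versus WT 14 lower (8.92%). Against DKO 2 were higher in p62 TKO (8.52%) and 3 in Nrf2 TKO (10.9%). With only the groups compared, Atg5 KO versus WT gave 0 higher (16.2%) and 1 lower (10.3%), and DKO versus WT 4 higher (36.5%). The interaction gave 6 above 0 (14.7%), p62 TKO versus DKO 3 higher (23.4%) and p62 TKO versus Nrf2 TKO 1 higher (7.49%). Nrf2 TKO versus WT gave 0 higher (15.8%) and 19 lower (11.6%). The cause was not tested. Without the 20 most abundant other genes in the total, the shares were 3.13% in DKO, 2.12% in Atg5 KO, 2.07% in p62 TKO, 1.79% in WT, 1.75% in Nrf2 TKO and 1.71% in TSC1 KO.

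Leaving out 1 library at a time gave these ranges, with the range of the share of all genes called the same way in brackets. Members higher ran from 0 to 4 in Atg5 KO versus WT (15.3 to 19.1%) and 2 to 12 for the interaction (11.5 to 14.6%). They ran from 2 to 15 in DKO versus WT (33.6 to 36.3%) and 3 to 7 in Nrf2 TKO versus DKO (24 to 27.1%). Nrf2 TKO versus WT gave 0 to 1 higher (17.1 to 24%) and p62 TKO versus DKO 3 to 5 (19.2 to 21.9%). In p62 TKO versus Nrf2 TKO 1 to 3 were higher (7.43 to 10.3%), and in p62 TKO versus WT 0 to 1 (24.8 to 27%). Members lower ran from 0 to 4 in Atg5 KO versus WT (6.83 to 13.3%) and 1 to 5 in TSC1 KO versus WT (3.99 to 6.9%). They ran from 2 to 4 for the interaction (17.4 to 20.1%) and 12 to 24 in p62 TKO versus DKO (16.7 to 21.7%). In p62 TKO versus Nrf2 TKO 0 to 1 were lower (4.63 to 8.38%). In p62 TKO versus WT 9 to 34 were lower (19.1 to 23.4%), and in Nrf2 TKO versus WT 17 to 38 (12.8 to 18.8%). In DKO versus WT 10 to 18 were lower (29.9 to 32.6%), and in Nrf2 TKO versus DKO 24 to 41 (24.2 to 29.4%).

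With the replicate number as a block, the replicate block left 7 higher and 13 lower in DKO versus WT, and 5 and 37 in Nrf2 TKO versus DKO, and it moved none of the 18 counts by over 1.5 times. Libraries that share a number correlated at −0.282 to 0.261 over 60 pairs (median −0.0125), 7 of them over 0.1. Those of different number correlated at −0.284 to 0.284 over 180 pairs (median 0.00369), 24 of them over 0.1. Of 24 libraries, 6 correlated best with their own number. These values show no pairing by number, but a check of this kind cannot exclude it. Low depth limits Rpl3l, Rpl39l and Rps27rt, for which no change could be detected or tested.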
